A study of Mus musculus with 8 samples.

Results

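The expression of 10 genes of NADPH metabolism was followed by RNA sequencing in SCA1-positive and SCA1-negative fractions of the mouse mammary carcinoma line 4T1. The genes were the isocitrate dehydrogenases Idh1 and Idh2, the malic enzymes Me1 and Me2, and the NAD kinase Nadk, together with G6pdx, Pgls, Pgd, Tkt and Taldo1 of the pentose phosphate pathway. They were selected on their role in NADPH supply, matched by symbol to the Ensembl identifiers of the count table, and chosen with their values in this same comparison known, so that their differences are a description, no p-value is given for them, and a call of the fit across all genes is not a test of the set. All 10 were found among the 16341 genes counted, and all 10 were among the 11717 genes that passed the filter on low counts. Each group had 4 libraries, and SCA1 is the surface protein encoded by Ly6a. The 4T1-Sca1+ and 4T1-Sca1- cells were separated from parental 4T1 by magnetic columns after staining for SCA1, and the labels name no treatment, genotype change or time point for either group. The labels are not uniform on the material, since the source field names the parental line while the extraction protocol mentions tumor and the sort field a CD45-negative gate, and the groups are therefore called by SCA1 alone. The labels do not say whether the 4 libraries of a group came from separate sorts or cultures, so p-values measure only the spread between these libraries, which may be technical.

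NADPH carries the electrons that cells use to build fatty acids and sterols and to keep glutathione and thioredoxin reduced. In the cytosol it is made mainly by glucose-6-phosphate dehydrogenase and 6-phosphogluconate dehydrogenase in the oxidative arm of the pentose phosphate pathway, by malic enzyme 1 and by isocitrate dehydrogenase 1. Not every enzyme in the set makes NADPH in the cytosol: IDH2 is the mitochondrial counterpart of IDH1, ME2 is mitochondrial and works mainly with NAD, the lactonase PGLS links both dehydrogenases, TKT and TALDO1 rearrange the sugars downstream, and NADK phosphorylates NAD to NADP. Proliferating tumor cells, among them mammary carcinoma cells, draw on these routes for both biosynthesis and antioxidant defense.

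Sequencing depth was 15041995 to 16968215 total counts for 4T1-Sca1+ and 13561804 to 16142836 for 4T1-Sca1-. The 10 genes had between 519 and 12306 counts in any 1 library. Ly6a was present at 166.7 ± 20.2 normalized counts in 4T1-Sca1+ cells and at 1.79 ± 1.73 in 4T1-Sca1- cells (SD, n = 4), which matched the labels. The epithelial identity of the line was checked with 8 markers, of which 7 were tested and only Krt5 was near 0, and their summed level was 54183 to 59105 normalized counts for 4T1-Sca1+ and 53743 to 57955 for 4T1-Sca1-. Within this sum Krt8 and Krt18 were called higher and Cdh1, Krt14 and Krt7 lower in 4T1-Sca1+ cells. Markers of other cells were low but not equal between the groups. All 4 tested of 10 leukocyte markers (Cd74, Csf1r, S100a8 and Cd68) were higher in 4T1-Sca1+ cells, and the sum over the 9 counted was 403 to 471 normalized counts for 4T1-Sca1+ and 226 to 264 for 4T1-Sca1-. The defining leukocyte gene Ptprc, which encodes CD45, had at most 4 counts in any library. At that low level it was untested but apart and higher in 4T1-Sca1+ libraries (2.32 ± 0.788 against 0.535 ± 0.619 normalized counts). Of 8 fibroblast markers 3 were tested and 2 (Pdgfra and Col1a1) were higher, with sums of 634 to 671 against 391 to 466, while Col1a2 had at most 8 counts in any library. The untested fibroblast markers Dcn (11.4 ± 3.7 against 1.06 ± 0.0848) and Pdgfrb (6.19 ± 4.13 against 0.257 ± 0.513) were also apart and higher in 4T1-Sca1+ libraries. Of 6 endothelial markers 1 was tested and was lower (Tie1), while the untested Pecam1 was apart and higher (5.01 ± 1.7 against 1.04 ± 0.842). Of 6 adipocyte markers none was tested. The endothelial and adipocyte sums were at most 66.2 and 9.55 normalized counts in any library, with Adipoq and Plin1 at 1 count or fewer. The part of these markers in the differences given below was not tested.

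The promoter sequences of the genes were searched for short motifs, because G6pdx, Pgd, Tkt, Taldo1 and Me1 are known targets of NRF2, the transcription factor that binds the antioxidant response element. RefSeq promoter windows (GRCm38.p6), each from 250 bases before to 50 bases after an annotated start, matched 9 of the 10 genes with 13 windows in all, and Me2 had no match. The antioxidant response element was searched as TGACNNNGC on both strands and was found in 3 of these 13 windows, 1 each of Me1, G6pdx and Pgd, beside 12.4% of all 32851 windows of the table. The Idh1 stretch is shown because Idh1 differed most between the fractions, and it holds the 250 bases before the more upstream of its annotated starts, in which none of the searched motifs occurred. The other stretches are the 30 bases around each match, with the matched letters in capitals.
Idh1 promoter, chr1:65186480-65186729: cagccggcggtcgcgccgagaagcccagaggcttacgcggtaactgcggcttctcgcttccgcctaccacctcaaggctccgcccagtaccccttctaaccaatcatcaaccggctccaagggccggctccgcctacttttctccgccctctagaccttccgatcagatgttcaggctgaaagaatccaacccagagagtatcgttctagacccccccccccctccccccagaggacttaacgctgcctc
Me1 match, chr9:86695901-86695930: gatgccgccgTGACTCAGCgcttctcgcgg
G6pdx match, chrX:74428918-74428947: aggcgggtcaGCTCAGTCAaagcacacgcc
Pgd match, chr4:149166060-149166089: atttcagagcTGACATTGCactgatcggac
All 4 stretches lie on the minus strand and are written 5′ to 3′ in the direction of the gene. The Me1 match began 6 bases before its RefSeq start and the G6pdx match, which read on the reverse strand, began 57 bases before the start, and both fell in sequence that GENCODE annotates as untranslated exon. The Pgd match began 3 bases after a downstream start, inside coding sequence. With only the bases before a start counted, the G6pdx window was the 1 of 13 with a complete match, beside 10.2% of all windows. The Me1 match overlaps an AP-1 motif, TGANTCA, which occurred in 7.81% of all windows and in no window of the other 8 genes. The E-box CACGTG was found for Nadk alone (7.15% of all windows) and the C/EBP-ATF4 motif TGATGNAA (3.97% of all windows) for none of the 9. These matches describe letters in the windows and are not evidence of binding.

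Idh1 showed the widest gap of the 10 genes between the fractions. Idh1 (ENSMUSG00000025950; GRCm38 chromosome 1, 65158616 to 65186500, minus strand) encodes the cytosolic and peroxisomal enzyme that turns isocitrate into 2-oxoglutarate and makes NADPH. Its normalized counts, that is counts divided by a size factor per library, were 2309, 2554, 2348 and 2442 in 4T1-Sca1+ replicates 1 to 4 and 639, 642, 578 and 720.2 in 4T1-Sca1- replicates 1 to 4. All 4T1-Sca1+ libraries lay far above all 4T1-Sca1- libraries, and the lowest of the first was 3.21 times the highest of the second. The means were 2413 ± 109 and 645 ± 58.4 (SD, n = 4), a 3.78-fold difference with a log2 fold change of 1.92 ± 0.06 (standard error, edgeR). Among the 11717 genes tested, 174 (1.49%) had a higher log2 fold change than Idh1. In bulk libraries such as these, a larger share of cells that express Idh1 and more Idh1 RNA per cell cannot be told apart.

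Idh2, the mitochondrial enzyme of the same reaction, was also higher in 4T1-Sca1+ cells but by a smaller step. Idh2 (ENSMUSG00000030541; GRCm38 chromosome 7, 80094846 to 80115392, minus strand) had normalized counts of 3822, 3874, 3987 and 3864 in 4T1-Sca1+ replicates 1 to 4. In the 4T1-Sca1- replicates it had 2765, 2951, 2849 and 2955. The groups did not overlap, and the lowest 4T1-Sca1+ library was 1.29 times the highest 4T1-Sca1- library. The log2 fold change was 0.45 ± 0.04, which is 1.36-fold, and it was 0.34 with offsets corrected for GC content. Because Idh1 differed more than Idh2, the balance of the pair differed too. Per kilobase of exon, Idh1 made up 36.1%, 38.1%, 35.5% and 37.1% of Idh1 plus Idh2 in 4T1-Sca1+ replicates 1 to 4. It made up 17.8%, 16.9%, 15.9% and 18.5% in the 4T1-Sca1- replicates. The shares averaged 36.7 ± 1.16% and 17.3 ± 1.13% (SD, n = 4) without overlap, and Idh2 remained the more abundant transcript of the pair in every library.

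**Figure D1:**
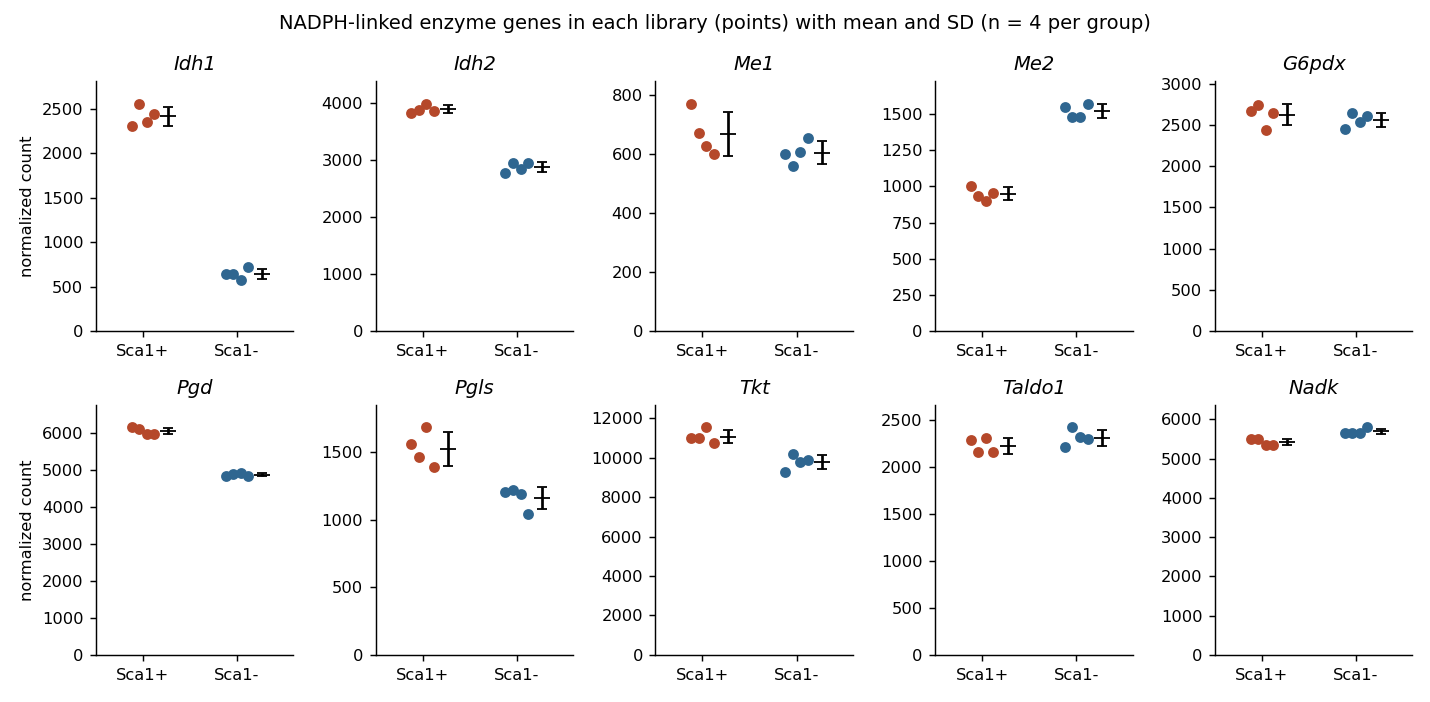
Normalized counts (vertical axes, from 0) of the 10 genes in each library (points), with the mean and SD of 4 libraries beside them, in 4T1-Sca1+ (red) and 4T1-Sca1- (blue) cells. Idh1 was 578 to 720.2 in 4T1-Sca1- and 2309 to 2554 in 4T1-Sca1+ cells, Me2 lay lower in 4T1-Sca1+ cells, and the groups overlapped for Me1, G6pdx and Taldo1.

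The malic enzymes differed from each other. Me1 (ENSMUSG00000032418; GRCm38 chromosome 9, 86581371 to 86695953, minus strand), the cytosolic enzyme that makes NADPH from malate, had normalized counts of 769.6, 669.6, 627 and 599 in 4T1-Sca1+ replicates 1 to 4 and 599.7, 558, 606 and 654 in 4T1-Sca1- replicates 1 to 4. Replicate 1 was the highest of the 4T1-Sca1+ libraries and the remaining ones lay within or near the 4T1-Sca1- range, so the groups overlapped. The log2 fold change was 0.16 ± 0.08. It was 0.07 without 4T1-Sca1+ replicate 1 and 0.23 with GC-corrected offsets. Me2 was the 1 gene of the set with a clearly lower level in 4T1-Sca1+ cells. Its normalized counts were 1005, 934, 899 and 956 in 4T1-Sca1+ replicates 1 to 4 against 1548, 1476, 1479 and 1569.5 in the 4T1-Sca1- replicates. All 4T1-Sca1+ libraries lay below all 4T1-Sca1- libraries, and the lowest of the latter was 1.47 times the highest of the former. Me2 (ENSMUSG00000024556; GRCm38 chromosome 18, 73769903 to 73815449, minus strand) was 1.59-fold lower, with a log2 fold change of -0.67 ± 0.05, and 3.03% of the genes tested had a lower value.

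The share of Me1 in Me1 plus Me2, per kilobase of exon, was 59.1%, 57.5%, 56.8% and 54.1% in 4T1-Sca1+ replicates 1 to 4. In the 4T1-Sca1- replicates it was 42.2%, 41.6%, 43.5% and 44.0%. The shares did not overlap, and each 4T1-Sca1+ library had more Me1 than Me2 while each 4T1-Sca1- library had less. Which of both is the more abundant in 4T1-Sca1+ cells depends on the gene length that is used, because Me2 has 7252 bases of exon in all and 3366 in its longest transcript. With the longest transcript of each gene the Me1 share was 41.7 ± 2.02% in 4T1-Sca1+ and 28.9 ± 0.947% in 4T1-Sca1- cells (SD, n = 4), so Me2 was then the more abundant in both groups. The Idh1 share was 32.6 ± 1.1% and 14.8 ± 0.995% on that scale.

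**Figure D2:**
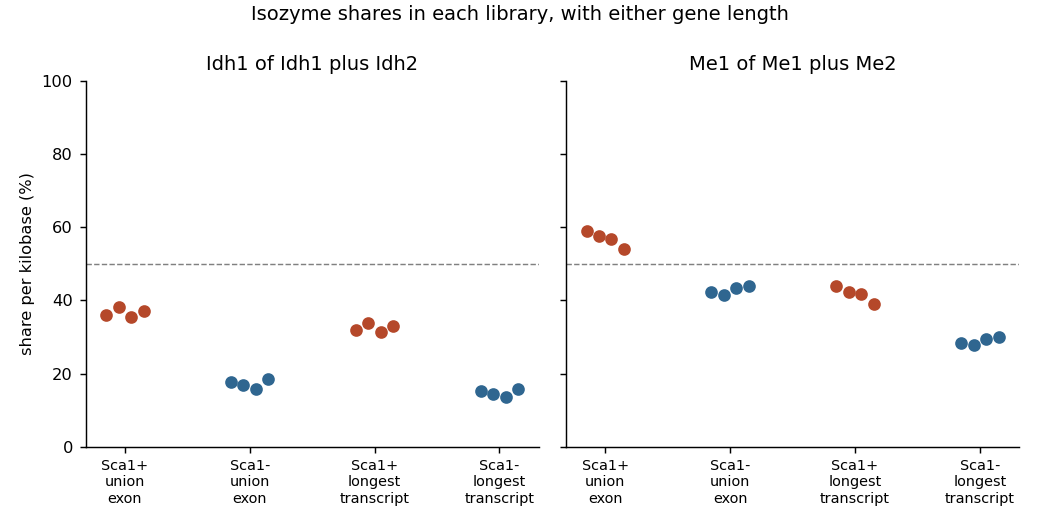
Share (percent, vertical axis) of Idh1 in Idh1 plus Idh2 and of Me1 in Me1 plus Me2 in each library (points), per kilobase of all exons or of the longest transcript, in 4T1-Sca1+ (red) and 4T1-Sca1- (blue) cells; the dashed line marks equal levels. The Idh1 share was 35.5% to 38.1% against 15.9% to 18.5% over all exons, and the Me1 share of 4T1-Sca1+ cells crossed the line with the length used.

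Among the oxidative pentose phosphate genes, RNA of Pgls and Pgd, of the later steps, was higher and that of G6pdx, at the entry, was not. G6pdx (ENSMUSG00000031400; GRCm38 chromosome X, 74409483 to 74429194, minus strand) encodes the dehydrogenase that commits glucose 6-phosphate to the pathway. It had normalized counts of 2668, 2747, 2442 and 2651 in 4T1-Sca1+ replicates 1 to 4 and 2449, 2644, 2532 and 2615 in the 4T1-Sca1- replicates. The ranges overlapped almost wholly, and the log2 fold change was 0.05 ± 0.05. G6pdx shares 418 bases of exon with Ikbkg on the opposite strand, which was 2.21-fold higher in 4T1-Sca1+ cells. The library kit does not mark strand, so reads of that stretch cannot be told apart and the G6pdx value is uncertain to that extent. Its retrocopy G6pd2 had 163 counts in all, against 20887 for G6pdx.

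Pgls (ENSMUSG00000031807; GRCm38 chromosome 8, 71592176 to 71601092, plus strand), the lactonase of the next step, had normalized counts of 1558, 1467, 1683 and 1389.8 in 4T1-Sca1+ replicates 1 to 4 and 1202, 1219, 1192 and 1042 in the 4T1-Sca1- replicates. The groups did not overlap, although replicate 4 was the lowest library in each. The log2 fold change was 0.40 ± 0.06, or 1.32-fold, and it was 0.24 with GC-corrected offsets. Pgls shares 776 bases of exon with Fam129c on the same strand, which was itself 1.67-fold higher, so these reads may be split between both genes. Pgd (ENSMUSG00000028961; GRCm38 chromosome 4, 149149991 to 149166771, minus strand), the dehydrogenase that makes the second NADPH of the pathway, had the tightest replicates of the set. Its normalized counts were 6142, 6111, 5964 and 5977 in 4T1-Sca1+ replicates 1 to 4 and 4834, 4874, 4924 and 4842 in the 4T1-Sca1- replicates. The groups were well apart for the spread within them, with coefficients of variation of 1.51% and 0.832%, and the log2 fold change was 0.33 ± 0.04, or 1.25-fold.

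In the non-oxidative arm, Tkt was slightly higher and Taldo1 was not. Tkt (ENSMUSG00000021957; GRCm38 chromosome 14, 30548359 to 30574720, plus strand), the transketolase, had normalized counts of 10986, 10998, 11538 and 10769.9 in 4T1-Sca1+ replicates 1 to 4 and 9296, 10185, 9767 and 9913 in the 4T1-Sca1- replicates. The groups were apart by a narrow margin, as the lowest 4T1-Sca1+ library was 1.06 times the highest 4T1-Sca1- library. The log2 fold change was 0.19 ± 0.04, or 1.14-fold, and it was 0.12 with GC-corrected offsets. Taldo1 (ENSMUSG00000025503; GRCm38 chromosome 7, 141392199 to 141402968, plus strand), the transaldolase, had 2285, 2155, 2311 and 2156 normalized counts in 4T1-Sca1+ replicates 1 to 4 and 2215, 2421, 2324 and 2293 in the 4T1-Sca1- replicates. These ranges overlapped, and the log2 fold change of -0.04 ± 0.05 turned to 0.0008 when libraries were scaled by their totals alone.

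Nadk (ENSMUSG00000029063; GRCm38 chromosome 4, 155562378 to 155591001, plus strand), which sets the size of the NADP pool in the cytosol, had the smallest difference of the 7 genes in the set whose groups did not overlap. Its normalized counts were 5502, 5496, 5352 and 5352 in 4T1-Sca1+ replicates 1 to 4 and 5662, 5661, 5654 and 5795 in the 4T1-Sca1- replicates. Each 4T1-Sca1+ library was below each 4T1-Sca1- library, but the step between them was only 1.03-fold. The log2 fold change was -0.06 ± 0.04, and with GC-corrected offsets it was -0.09. With upper-quartile scaling it shrank to -0.027 and with library totals alone to -0.014, so this small step depends on the scaling.

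In the edgeR fit across all genes (adjusted p under 0.05), 31.3% of the genes tested were called higher in 4T1-Sca1+ cells and 30.2% lower. The calls included 5 of the 10 genes as higher (Idh1, Idh2, Pgd, Pgls and Tkt) and 1 as lower (Me2), and since the set was chosen on this contrast this count is a description from which nothing is read. For 7 of the 10 genes the 4T1-Sca1+ and 4T1-Sca1- values did not overlap, of which 5 were higher and 2 (Me2 and Nadk) lower in 4T1-Sca1+ cells, beside 26.8% of all tested genes apart and higher and 27.9% apart and lower. The median log2 fold change was 0.17 over the 10 genes and 0.01 over all tested genes. Of the 10 genes, Idh1 lay above the 95th percentile of all log2 fold changes (1.03) and Me2 below the 5th (-0.55). As a share of all counts in a library, the 10 genes together held 0.243% to 0.249% in 4T1-Sca1+ cells and 0.202% to 0.209% in 4T1-Sca1- cells.

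**Figure D3:**
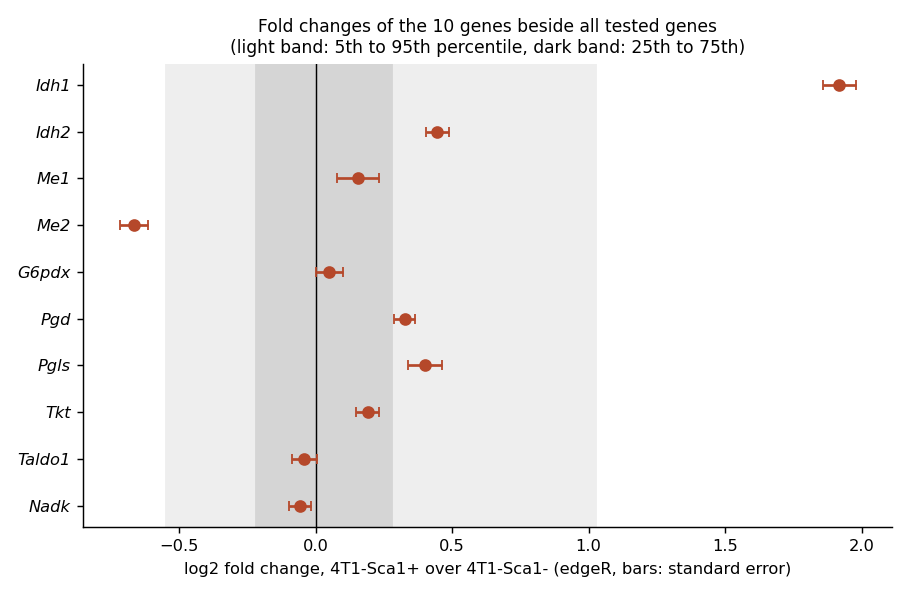
Log2 fold change of the 10 genes, 4T1-Sca1+ over 4T1-Sca1- (points, with standard errors from edgeR), beside the 5th to 95th (light band) and 25th to 75th percentile (dark band) of all 11717 genes tested. Idh1 at 1.92 lay above the light band, Me2 at -0.67 below it, and the remaining 8 genes were between -0.06 and 0.45.

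The genes also differed in level from each other. Levels between genes are given as normalized counts per kilobase of exon. In 4T1-Sca1+ cells Tkt (1506 ± 44.5, SD, n = 4) and Idh2 (1502 ± 27.2) were the highest and overlapped. Nadk (1448 ± 22.7), Taldo1 (1026 ± 38.3) and Pgd (938 ± 14.2) followed, each apart from the next. Idh1 (871 ± 39.4) and G6pdx (853 ± 42.4) overlapped in the middle of the order. Pgls (404 ± 33.4), Me1 (173 ± 19.4) and Me2 (131 ± 6.16) were the lowest, each apart from the next. Idh1 was thus not apart from G6pdx in the SCA1-positive fraction, given the spread of the libraries.

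In 4T1-Sca1- cells the order began with Nadk (1519 ± 18.2), Tkt (1331 ± 50.6) and Idh2 (1113 ± 35.2), the last of which overlapped Taldo1 (1066 ± 39.3). G6pdx (831 ± 28.6), Pgd (755 ± 6.29) and Pgls (309 ± 21.7) came next and were apart from their neighbours. Idh1 (233 ± 21.1) was near the bottom of this order and overlapped Me2 (209 ± 6.55), and Me1 (157 ± 10.3) was the lowest. Idh1 was thus 6th of 10 in 4T1-Sca1+ cells and 8th in 4T1-Sca1- cells, and its level per kilobase exceeded that of 92.7% and 67.6% of all tested genes. The corresponding shares for G6pdx were 92.4% and 91.7%. With the longest transcript as the length, Tkt was the highest in both groups and Idh1 was 6th and 9th. On that scale Me2 (451 ± 14.1) lay above Idh1 (280.0 ± 25.4) in 4T1-Sca1- cells without overlap, with Pgls (433 ± 30.5) between them.

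**Figure D4:**
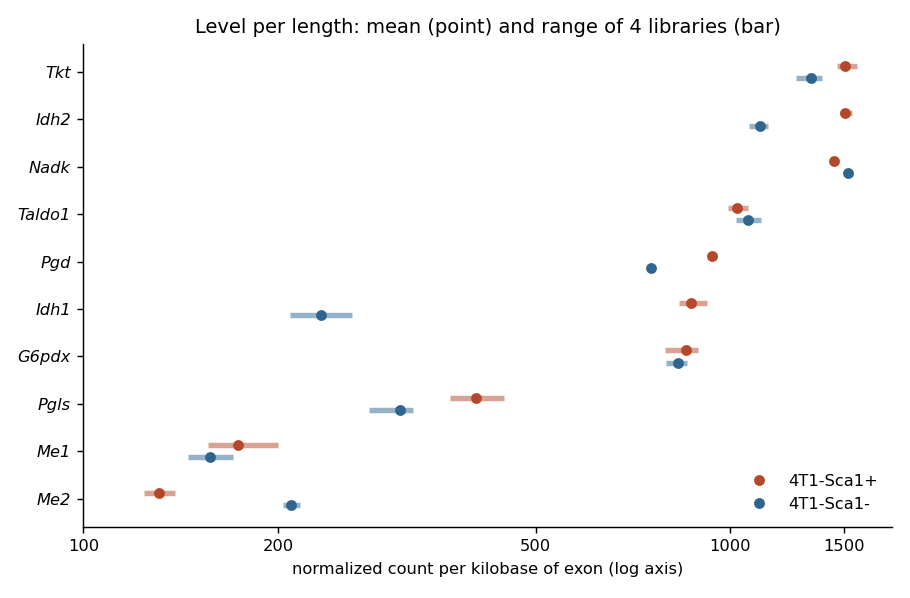
Mean (point) and range over 4 libraries (bar) of the normalized count per kilobase of exon (log axis) for each gene in 4T1-Sca1+ (red) and 4T1-Sca1- (blue) cells, ordered by the level in 4T1-Sca1+ cells. Idh1 was level with G6pdx in 4T1-Sca1+ cells (871 and 853) and overlapped Me2 in 4T1-Sca1- cells (233 and 209), an overlap that is lost with the longest transcript as the length (280.0 and 451).

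The profile of Idh1 over the 8 libraries was compared with that of all other genes tested. The most similar, by Pearson correlation of log2 CPM, were Gstm1 (r = 0.9989), Ank (r = 0.9988), Dmp1 (r = 0.9987), Adgrg3 (r = 0.9983) and Eml1 (r = 0.998). These 5 had log2 fold changes of 3.57, 0.78, 2.21, 1.37 and 0.73, so they shared the step between the groups and not its size. The 8 points fall into the groups by design, and 1954 genes tested had an r over 0.9. Gstm1 belongs to a family of similar genes whose reads may be shared.

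The reactions around these enzymes were followed in 6 lists of other genes, 88 in all, of which 83 were tested. The lists name genes by role, but they were drawn up with earlier results of these data known, so the adjusted p-values given for single genes, from the edgeR fit over all tested genes, are not independent evidence for a list. In 4T1-Sca1+ cells 30 of the 83 genes were called higher and 27 lower, beside 31.3% and 30.2% of all genes tested, and the median log2 fold change was 0.06. The same shares of all genes stand beside the counts of each list that follow. Of the 8 tested genes for the remaining pentose phosphate steps, 2 were higher and 3 lower. H6pd, which makes NADPH inside the endoplasmic reticulum, rose from 432 ± 47.9 to 720.4 ± 27 normalized counts (SD, n = 4), a log2 fold change of 0.75 ± 0.07 (adjusted p = 6.88e-08, edgeR). The sedoheptulose kinase Shpk was also higher, at 0.74 ± 0.15. The ribokinase Rbks was lower at -0.80 ± 0.19 and Prps1, which carries ribose 5-phosphate on towards nucleotides, at -0.35 ± 0.06.

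Of 12 other genes for NADP(H) sources and the NADP pool, 3 were higher and 2 lower. The mitochondrial NADP-linked malic enzyme Me3 was higher by 0.79 ± 0.22 on the log2 scale (adjusted p = 0.00502, edgeR), at only 39 ± 9.01 against 22.7 ± 6.25 normalized counts. Nmnat3, an NAD-synthesis enzyme, was higher by 0.55 ± 0.22, a call that was lost in 5 of 18 alternatives. The mitochondrial one-carbon enzymes Shmt2 and Mthfd2 were lower, at log2 fold changes of -0.43 and -0.27. The count of genes called higher in this list was 1 without 4T1-Sca1- replicate 1 or without 4T1-Sca1- replicate 3, 1 with limma on the normalized signal, and 6 with GC-corrected offsets.

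Of 18 genes that make, carry or use citrate, isocitrate and malate, the substrates of the IDH and malic enzymes and their precursors, 11 were called lower in 4T1-Sca1+ cells and 2 higher. The lower genes included users as well as suppliers of these substrates, among them Acly, which cleaves citrate (-0.20 ± 0.04), and Idh3a and Idh3b of the NAD-linked isocitrate dehydrogenase (-0.38 ± 0.06 and -0.15 ± 0.04). Idh3g of the same NAD-linked enzyme was not called (-0.015 ± 0.053), with overlapping groups. Acly and the Idh3 genes were named after their values were seen. The median log2 fold change of this list was -0.17, against 0.01 for all tested genes, and between 10 and 13 genes were called lower under the other scalings and the GC-corrected offsets. Citrate synthase, Cs, fell from 8872 ± 156 to 6232 ± 379 normalized counts, a log2 fold change of -0.50 ± 0.05 (adjusted p = 7.65e-08, edgeR). Glud1, which feeds glutamate into the cycle, was lower at -0.53 ± 0.05 on the same scale. The exception was Pcx, pyruvate carboxylase, which rose 2.49-fold, from 114 ± 6.1 to 281 ± 13.2 normalized counts (1.32 ± 0.08, adjusted p = 4.08e-10, edgeR). The dicarboxylate carrier Slc25a10 was called higher at 0.23 ± 0.07, with overlapping groups, and was at -0.01 with GC-corrected offsets.

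At the branch point of glucose 6-phosphate, 4 of 13 tested genes were higher and 5 lower. The muscle-type phosphofructokinase Pfkm was higher by 0.70 ± 0.05 (adjusted p = 2.55e-09, edgeR) and the glucose transporter Slc2a1 by 0.48 ± 0.05 on the log2 scale. The phosphofructokinase genes did not move together. Pfkm rose from 663 to 1068 mean normalized counts, while the more abundant Pfkl fell from 9146 to 7759 (-0.22 ± 0.04). Pfkp was called higher at 0.14 ± 0.05, with overlapping groups. Of the hexokinases, Hk2 was higher at 0.39 ± 0.04 and Hk1 lower at -0.21 ± 0.05. Tigar, a phosphatase that lowers glycolytic flux, was lower at -0.48 ± 0.06, and G6pc3, a glucose-6-phosphatase, at -0.44 ± 0.08.

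Among the enzymes that spend NADPH, 11 of 20 were higher and 5 lower in 4T1-Sca1+ cells. Blvrb, biliverdin reductase B, rose from 50.7 ± 3.58 to 254 ± 14.6 normalized counts, or 5.05-fold (log2 fold change 2.34 ± 0.10, adjusted p = 2.8e-12, edgeR). The quinone reductase Nqo1 rose 3.13-fold (1.65 ± 0.07 on the log2 scale) and the carbonyl reductase Cbr1 2.10-fold (1.07 ± 0.07). Of the lower genes, Aldh18a1, which starts proline synthesis, was at -0.34 ± 0.05 and the aldose reductase Akr1b3 at -0.57 ± 0.23, where the latter had about 14.7 normalized counts in 4T1-Sca1+ cells and lost its call in 11 of 18 alternatives. The number called lower in this list was 3 with upper-quartile scaling and 1 with library totals alone. Among the fits without a library it was 3 without 4T1-Sca1+ replicate 1 or 3, 2 without 4T1-Sca1+ replicate 4 or 4T1-Sca1- replicate 4, and 1 without 4T1-Sca1- replicate 3.

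The list of NRF2, its inhibitor KEAP1 and selected targets had the highest median of the 6 lists, 0.53. Nqo1 was counted with the enzymes that spend NADPH, so the NRF2 list is not a full set of targets. In the NRF2 list 8 of 12 genes were higher and 1 lower. The 8 included Nfe2l2, which encodes NRF2 (0.81 ± 0.05), and Keap1 (0.31 ± 0.04), so not all of them are targets. The cystine transporter Slc7a11 rose from 311 ± 3.73 to 1755 ± 111 normalized counts, or 5.70-fold (log2 fold change 2.51 ± 0.06, adjusted p = 1.87e-15, edgeR). Srxn1, which repairs oxidized peroxiredoxins, rose 2.10-fold (1.07 ± 0.05 on the log2 scale), whereas the heme oxygenase Hmox1 was lower at -0.32 ± 0.06. The log2 fold changes of the known NRF2 targets within the NADPH set were 0.33 for Pgd, 0.19 for Tkt, 0.16 for Me1, 0.05 for G6pdx and -0.04 for Taldo1.

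**Figure D5:**
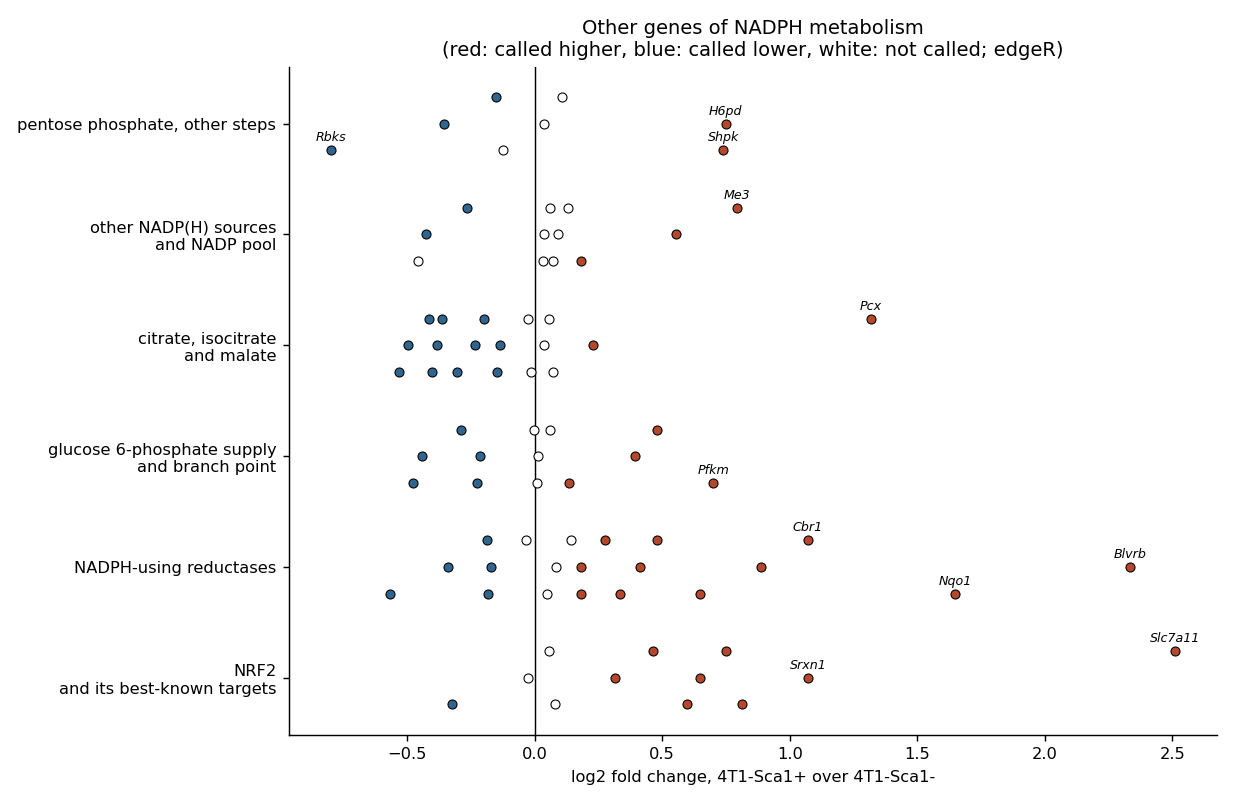
Log2 fold change (horizontal axis, 4T1-Sca1+ over 4T1-Sca1-) of the 83 tested genes in the 6 lists around the NADPH enzymes, where each point is a gene and its colour gives the edgeR call (adjusted p under 0.05). In the list for citrate, isocitrate and malate 11 of 18 genes were called lower. In the NRF2 list 8 of 12 were called higher, Nfe2l2 and Keap1 among them.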

How the data were processed

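RNA was measured in 4 libraries of 4T1-Sca1+ and 4 of 4T1-Sca1- cells. The submitters' processing notes name cutadapt 1.16, STAR 2.5.3a and GRCm38/mm10, and the counting tool, annotation and use of strand are not given in the sources used here. The authors deposited raw counts per Ensembl gene for 16341 genes, and a normalized signal table for 15372 genes, whose values equalled the counts divided by DESeq2 size factors (relative tolerance 1e-09). Total counts per library were 13561804 to 16968215. The reads carry no molecular identifiers, so limits from counts cover counting error only.

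The normalized counts in the text are counts over these size factors. Symbols, positions and exon lengths came from GENCODE M21 on GRCm38, where 16202 identifiers were found and 139 were not. Levels per kilobase used the union of exons. Counts were fitted with edgeR 4.0.16 in R 4.3.3 (filterByExpr, TMM scaling, glmQLFit and glmQLFTest, two-sided, no covariate), with Benjamini-Hochberg adjustment over 11717 tested genes, 4624 genes being left out by the filter. A gene was called at an adjusted p under 0.05. The standard error was the absolute log2 fold change over the square root of F. Log2 CPM used a prior count of 2. The fit was tested on simulated data. Pairs of libraries within a group differed by 1.92 to 10.1 times the chi-square expected from counting, so none was counted as a duplicate.

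The members, their companion lists and the naming rule were chosen with earlier results of these data known. The rule named the 10 members, Ly6a, the 5 genes most like Idh1 (no Gm or Rik names) and, in each list, the called genes that differed by 1 or more on the log2 scale and the 2 highest and 2 lowest called genes. The markers with counts in the text were chosen after their values were seen, and so were Ikbkg, Fam129c and G6pd2 as overlapping or related genes. Acly, Idh3a, Idh3b, Idh3g, Pfkl, Pfkp, Hk1, Hk2, Nfe2l2 and Keap1 were likewise named outside the rule, after their values were seen. Alternatives were DESeq2 size factors, upper-quartile scaling, library totals alone, DESeq2 1.42.0, limma-voom (limma 3.58.1), no low-count filter, a minimum of 10 counts per library, limma on log2(value + 1) of the normalized signal, a replicate block, GC-corrected offsets, leaving out each library, a stricter adjusted p (0.01), a minimum difference of 1 on the log2 scale, the longest transcript length and only the upstream promoter bases. Protein identity between isozymes was not analysed here.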

Additional observations from a re-analysis of the deposited data

Results flagged for a closer look

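The 10 genes, the list genes named by the rule, Ly6a and both isozyme shares were checked for outlying libraries. In each group a library far from the other 3 was sought, which made 74 group checks. About 1 in 20 such checks, or 3.7 of 74, is met by chance, and 2 were met here. Pgls had 1042 normalized counts in 4T1-Sca1- replicate 4, against 1192 to 1219 in the other 4T1-Sca1- libraries. Nadk had 5795 normalized counts in the same library, 4T1-Sca1- replicate 4, against 5654 to 5662 in the others. Without this library the log2 fold change was 0.35 for Pgls and -0.05 for Nadk, against 0.40 and -0.06 with it.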

How the results depend on the processing

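The 10 genes gave 180 log2 fold changes under 18 alternative fits, of which 169 lay within the replicate SD of the reported value, 11 lay outside it and none of those reversed a called gene. Genes not called in the main fit were called in some of these fits, Me1 in 5 of 18 and Taldo1 and Nadk in 1 each. GC-corrected offsets gave 0.34 for Idh2, -0.59 for Me2, 0.36 for Pgd, 0.24 for Pgls, 0.12 for Tkt, -0.11 for Taldo1 and -0.088 for Nadk. Upper-quartile scaling gave 0.36 for Pgd and -0.027 for Nadk, and library totals alone gave 0.37 and -0.014. Idh1 ranged from 1.87 without 4T1-Sca1- replicate 3 to 2.00 with GC-corrected offsets. Leaving out each library in turn gave 0.35 to 0.44 for Pgls and -0.07 to -0.05 for Nadk. A minimum difference of 1 on the log2 scale reduced the calls over all tested genes to 612 higher and 103 lower, and those in the lists around the set to 6 higher and 0 lower, which follows from the stricter rule. With the longest transcript the Idh1 shares were 32.6% and 14.8% and the Me1 shares 41.7% and 28.9%. The causes of the other changes were not tested.

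Same-numbered libraries of both groups were checked for pairing. The correlation of their deviations from the group means was 0.0957, -0.15, -0.0339 and -0.00107 for numbers 1 to 4, and 1 of 8 libraries correlated best with its own number. The deviations thus showed no sign of pairing. Whether same-numbered libraries came from the same sort cannot be told from this check, as such libraries need not share deviations. With the number as a replicate block, 3605 genes were higher and 3452 lower, against 3668 and 3538 without it.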
